A study of Mus musculus with 4 samples.

Results

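Immediate early genes are the genes a cell switches on first after a stimulus, and 10 of them were followed here in the mouse ileum after oral metformin, a glucose-lowering biguanide. They were chosen by name: Fos, Fosb, Jun, Junb, Jund, Egr1, Ier2, Nr4a1, Klf4 and Dusp1. All 10 had a probe, out of 20886 gene symbols on the array, and 9 of them were among the 21648 genes and unnamed transcripts tested. Total RNA from the ileum of male C57BL/6J mice aged 10 weeks was labelled with Cy3 and hybridised to 4 single-colour arrays. The metformin group held 2 samples, from mice given the drug by mouth at 1000 mg/kg. The control group held 2 samples from mice of the same strain, sex and age. The labels give no length of treatment, no interval between the last dose and tissue collection, and no vehicle. They also do not state whether each sample is a different mouse, and the p-values therefore reflect the spread among these 4 samples, which may be technical.

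Immediate early genes are transcribed without new protein synthesis, because the factors that drive them are already bound or waiting in the resting cell. Growth factors, calcium, cyclic AMP and mechanical or thermal stress reach them through the MAP kinase cascades and the transcription factors SRF, its ELK partners and CREB. Most of the products are themselves transcription factors, which pass the signal on to later genes, and others, such as the phosphatase Dusp1, switch the signal off. In the gut they are known to respond to feeding, epithelial injury and handling of the tissue.

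The control regions that give these genes their fast response lie close to their starts. Promoters of 8 members were matched, all but Egr1 and Ier2, and the 5 shown were picked because they hold the core of the cyclic AMP response element. Junb also holds it and is not shown, as its values varied least between samples. The sequences are RefSeq promoters of assembly GRCm38.p6, from 250 bases before to 50 bases after the annotated start, written in the direction of the gene. Capitals mark the cyclic AMP response element TGACGTCA, its core TGACG on either strand, and the TATA box TATAAA.
Fos (chr12:85473640-85473939, plus strand): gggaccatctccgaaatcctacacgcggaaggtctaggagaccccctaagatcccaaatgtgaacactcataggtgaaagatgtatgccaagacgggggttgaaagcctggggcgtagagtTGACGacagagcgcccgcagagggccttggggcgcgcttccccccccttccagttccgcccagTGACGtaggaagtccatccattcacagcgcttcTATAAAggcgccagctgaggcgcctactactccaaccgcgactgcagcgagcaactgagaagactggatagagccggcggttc
Fosb (chr7:19309996-19310295, minus strand): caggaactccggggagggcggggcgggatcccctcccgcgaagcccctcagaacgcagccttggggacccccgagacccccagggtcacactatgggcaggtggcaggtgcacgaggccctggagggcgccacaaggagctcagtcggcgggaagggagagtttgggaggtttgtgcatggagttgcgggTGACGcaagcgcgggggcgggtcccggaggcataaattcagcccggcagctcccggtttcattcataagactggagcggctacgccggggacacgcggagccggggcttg
Nr4a1 (chr15:101266596-101266895, plus strand): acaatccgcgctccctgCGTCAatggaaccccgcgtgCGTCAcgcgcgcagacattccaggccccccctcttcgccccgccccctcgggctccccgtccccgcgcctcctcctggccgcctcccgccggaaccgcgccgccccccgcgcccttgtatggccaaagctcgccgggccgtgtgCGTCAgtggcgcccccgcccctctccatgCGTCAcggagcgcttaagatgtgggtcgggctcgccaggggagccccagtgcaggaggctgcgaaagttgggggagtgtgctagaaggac
Klf4 (chr4:55532426-55532725, minus strand): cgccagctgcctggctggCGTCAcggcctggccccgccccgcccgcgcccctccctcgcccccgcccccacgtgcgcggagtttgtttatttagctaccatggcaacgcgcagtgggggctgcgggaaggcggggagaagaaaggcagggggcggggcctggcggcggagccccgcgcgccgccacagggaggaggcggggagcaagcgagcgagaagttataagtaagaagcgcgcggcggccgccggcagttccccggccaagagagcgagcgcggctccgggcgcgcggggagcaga
Dusp1 (chr17:26508423-26508722, minus strand): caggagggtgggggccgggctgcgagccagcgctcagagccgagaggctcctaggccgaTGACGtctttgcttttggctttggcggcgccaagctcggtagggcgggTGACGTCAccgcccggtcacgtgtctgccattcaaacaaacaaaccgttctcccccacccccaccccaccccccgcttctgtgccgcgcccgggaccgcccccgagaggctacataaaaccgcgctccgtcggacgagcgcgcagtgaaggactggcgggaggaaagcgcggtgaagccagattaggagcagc
The Fos promoter held the TGACG core at -129 to -125 and at -66 to -62 from the start, and a TATA box at -33 to -28. Fosb held 1 core at -60 to -56, and Klf4 held 1 at -232 to -228. Nr4a1 held 4 cores, all on the opposite strand, the nearest to the start at -40 to -36. Dusp1 held the full element at -143 to -136, which reads the same on both strands and so contains a core on each, and a further core at -191 to -187. The core was present in 6 of the 8 members with a promoter in the table and in 20.8% of all 32851 promoters. The full element was present in 1 of 8, and in 1.79% of all promoters. The AP-1 site TGANTCA, found in 7.81% of all promoters, and the SRF-binding CArG box, found in 1.63%, were in none of the 8 windows. These matches describe letters in a window and not binding. Sites more than 250 bases before the start were not read, and Egr1 and Ier2 had no promoter to search. A site absent from a window may thus be present elsewhere at the gene.

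Values below are log2 processed signals relative to the 75th percentile of the same array, so 0 is the level of a bright probe and each unit is a doubling. Each member was read by 1 probe, and a level is compared between arrays for the same probe only. The 75th percentile signal was 866 and 1072 in metformin 1 and 2, against 918 and 1454 in control 1 and 2. It was thus higher on both arrays numbered 2 than on both numbered 1. Between 65.17% and 69.12% of probes were well above background. These figures do not measure RNA quality. All 76 spots of the members were well above background and none was saturated. The marker genes of gut regions and layers differed between the samples, however. The summed linear signal of 5 ileal enterocyte markers was 67.8 and 583.2 times the 75th percentile in metformin 1 and 2, against 619.1 and 412.7 in control 1 and 2. That of 5 markers of the proximal small intestine was 803 and 88.4 in metformin 1 and 2, against 179.1 and 121.7 in control 1 and 2. Metformin 1 thus had the least summed ileal and the most summed proximal signal. Slc40a1, the iron exporter ferroportin and 1 of those 5 proximal markers, went the other way, at -1.69 and 0.05 in metformin 1 and 2, against 0.75 and -1.37 in control 1 and 2 (log2). Smooth muscle markers summed to 4.17 and 5.40 in the metformin samples and to 127.2 and 6.42 in control 1 and control 2, so control 1 stood far above the other samples. The part of these markers in the results that follow was not tested. In a piece of whole tissue, fewer cells of a type and less RNA per cell cannot be told apart.

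The comparison of metformin with control asked whether the drug altered the early response genes of the ileum. None of the 9 members in the fit passed the threshold (limma, Benjamini-Hochberg adjusted p = 1.00 for each), and none had an unadjusted p under 0.05. Among all genes tested, 0 passed, which is 0%, and 347 had an unadjusted p under 0.05, which is 1.60%. For no member did the 2 groups separate, whereas both metformin arrays lay above both control arrays for 12.3% of genes and below them for 8.56%. The mean was higher in metformin for 4 members and lower for 5, with a median difference of -0.04, against 0.06 over all genes tested. The samples of a group, on the other hand, differed widely. With 2 samples against 2, an exact permutation test of 1 gene cannot give a two-sided p below 0.333.

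**Figure D1:**
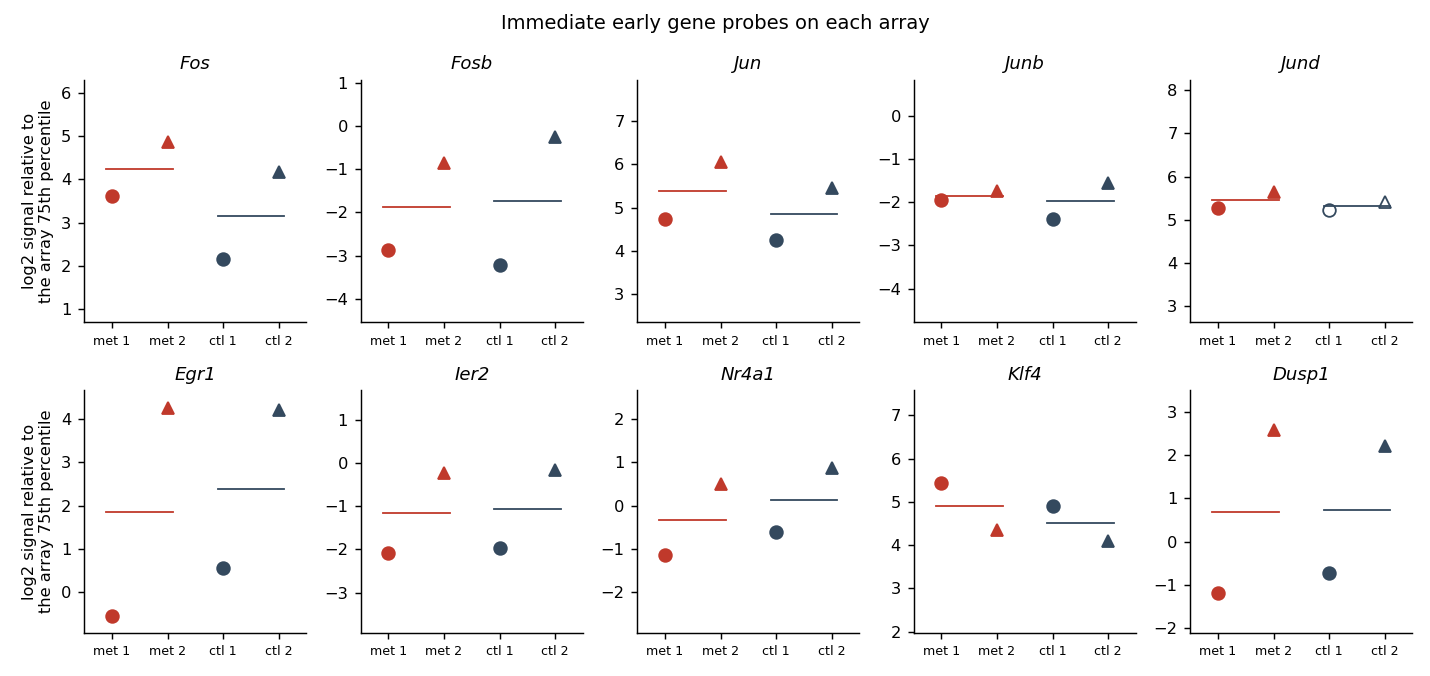
Log2 signal above or below the 75th percentile of its array (vertical axis, the same span in each panel) of the probe of each immediate early gene on metformin 1, metformin 2, control 1 and control 2 (horizontal axis), 1 point per array. Lines give group means, and open symbols mark the flagged control spots of Jund. Egr1 spans from -0.54 to 4.27 within the metformin pair, while Junb stays between -2.39 and -1.56 over all 4 arrays.

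The Fos family supplies the partners that pair with Jun proteins to form the factor AP-1. Fos itself, the classic marker of recent cell activation, read 3.61 and 4.85 in metformin 1 and 2, against 2.15 and 4.16 in control 1 and 2. The lowest value was control 1 and the highest was metformin 2, and metformin 1 lay below control 2, so the groups overlapped. The group difference was 1.08 (SE 0.84, 95% interval -1.17 to 3.32, limma adjusted p = 1.00), the largest among the members in the fit. Metformin 1 exceeded control 1 by 1.46 and metformin 2 exceeded control 2 by 0.69, which are 2.75-fold and 1.62-fold on the linear scale. Without control 1, the sample with the muscle signal, the difference was 0.07, and without metformin 1, the sample with the proximal signal, it was 1.70. The other omissions moved it as well, to 2.08 without control 2 and to 0.45 without metformin 2. Within a group, metformin 2 read 2.36-fold over metformin 1, and control 2 read 4.02-fold over control 1.

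Fos is the only member with repeated spots, 10 on each array, and these give the error of reading 1 array. The SD between spots was between 0.02 and 0.06 log2 units on the 4 arrays, with 1 spot of metformin 1 left out by its outlier flag. The spread between samples of a group was far wider, with an SD of 0.88 in metformin and 1.42 in control (n = 2 each). For the members with a single spot, the scanner software gave an error of 10.0% to 10.33% of the signal, or at most 0.14 log2 units. It gave 10.0% for the Fos spots too, so this figure is not a spread measured between spots.

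**Figure D2:**
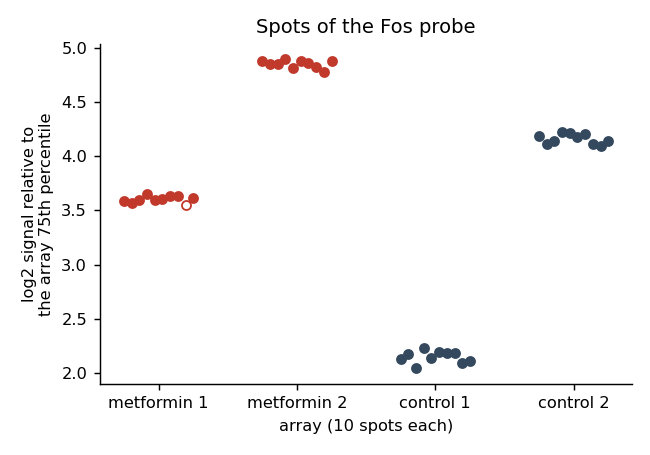
Log2 signal of each Fos probe spot, above the 75th percentile of its array (vertical axis), on the 4 arrays (horizontal axis, metformin 1, metformin 2, control 1 and control 2). Spots of an array lie together with an SD of at most 0.06, and the arrays lie apart, between 2.15 and 4.85.

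Fosb, a second Fos family member whose truncated form is known in the brain for its long persistence, read -2.87 and -0.87 in metformin 1 and 2, against -3.22 and -0.25 in control 1 and 2. Its difference was -0.13 (SE 1.24, 95% interval -3.44 to 3.17). The control samples alone were 7.85-fold apart and the metformin samples 4.01-fold apart, so both groups covered much the same range.

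Among the Jun proteins, Jun, the strongest activator of the family, read 4.73 and 6.06 in metformin 1 and 2, against 4.26 and 5.45 in control 1 and 2. As for Fos, each metformin array was above the control array of the same number, by 0.48 and 0.61, yet metformin 1 was below control 2. The difference was 0.54 (SE 0.66, 95% interval -1.22 to 2.30). Junb, which can restrain Jun, read -1.95 and -1.74 in metformin 1 and 2, against -2.39 and -1.56 in control 1 and 2. Both metformin values lay between the 2 control values, and the difference was 0.13 (SE 0.40, 95% interval -0.93 to 1.18). Jund, the Jun protein that resting cells already carry, read 5.27 and 5.65 in metformin 1 and 2. Both control spots of Jund carried an outlier flag, which kept the gene out of the fit. With those spots kept, an alternative added after the data were seen, control 1 and 2 read 5.23 and 5.42 and the difference was 0.13, with overlapping groups.

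The zinc-finger factor Egr1, a growth and injury response factor, was the most variable member. It read -0.54 and 4.27 in metformin 1 and 2, against 0.56 and 4.22 in control 1 and 2. The sample numbered 2 exceeded the sample numbered 1 by 27.9-fold in metformin and by 12.6-fold in control. The 2 samples numbered 2 were nearly level. The group difference was -0.53 (SE 2.05), and its 95% interval of -5.99 to 4.94 leaves large differences either way within the error. The fit had no term for sample number, so the gap between numbers 1 and 2 enters this error, as for the other members.

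Nr4a1, an orphan nuclear receptor also called Nur77, read -1.15 and 0.51 in metformin 1 and 2, against -0.60 and 0.87 in control 1 and 2. Each metformin array was below the control array of the same number, by 0.54 and 0.36 log2 units, and the groups overlapped (difference -0.45, SE 0.79, 95% interval -2.58 to 1.67). Ier2, a small nuclear protein of the early response, read -2.08 and -0.23 in metformin 1 and 2, against -1.97 and -0.18 in control 1 and 2. These pairs were almost level, and the difference was -0.08 (SE 0.91, 95% interval -2.51 to 2.35).

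Klf4, a zinc-finger factor that also acts in the differentiation of gut epithelium, ran the other way between samples. It read 5.45 and 4.35 in metformin 1 and 2, against 4.90 and 4.10 in control 1 and 2. Here the samples numbered 1 were the high ones, 2.13-fold over number 2 in metformin and 1.74-fold in control. The difference was 0.40 (SE 0.53, 95% interval -1.02 to 1.82). Of 5 markers of small intestinal epithelium, 4 were likewise lower in both samples numbered 2 than in both numbered 1, against 38.2% of all genes. Vil1, which encodes the brush border protein villin, read 7.99 and 7.55 in metformin 1 and 2, against 7.63 and 7.26 in control 1 and 2. The part of these markers in the Klf4 values was not tested.

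Dusp1, a phosphatase that inactivates MAP kinases and so ends the signal that induces it, read -1.19 and 2.57 in metformin 1 and 2, against -0.73 and 2.21 in control 1 and 2. The samples numbered 2 were 13.6-fold and 7.67-fold above those numbered 1 in metformin and in control. The group difference was -0.04 (SE 1.63, 95% interval -4.39 to 4.31).

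**Figure D3:**
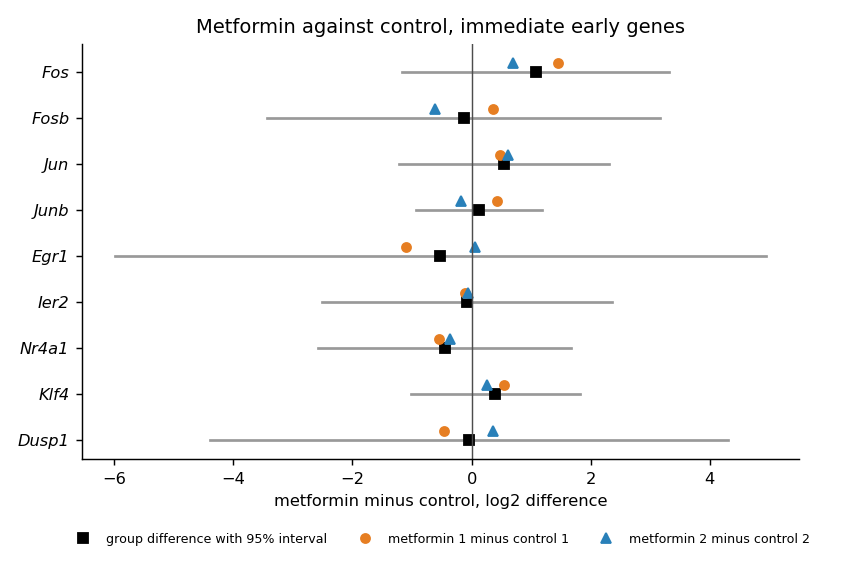
Metformin minus control difference in log2 units (horizontal axis) for each of the 9 immediate early genes in the fit (vertical axis). Squares with bars give the limma group difference and its 95% interval, circles metformin 1 minus control 1, and triangles metformin 2 minus control 2. Every interval crosses 0, with Egr1 the widest at -5.99 to 4.94 and Junb the narrowest at -0.93 to 1.18.

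Set side by side, the members divided by sample number. Both arrays numbered 2 were above both arrays numbered 1 for 8 of 9 members, against 27.7% of all genes tested, and Klf4 was below, as were 38.2% of genes. For 5 members, Fosb, Egr1, Ier2, Nr4a1 and Dusp1, the gap was at least 1 log2 unit, against 2.43% of genes. The median member difference between number 2 and number 1 was 1.65 in metformin and 1.80 in control. Over all genes tested the same medians were -0.10 and -0.13. The numbers come from the sample titles, and nothing in the labels says what a number stands for.

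The spread of the members over the 4 arrays was wide for this dataset. It was at least 1 log2 unit for 8 of 9 members, against 36.0% of genes tested. Their median range was 2.02 log2 units, against 0.77 for all genes tested, and their median SE was 0.84, against 0.37. The range of Egr1 exceeded that of 99.4% of genes tested and that of Dusp1 exceeded 98.5%. Fosb exceeded 96.8% and Fos 95.9%. At the other end, the range of Junb exceeded that of 53.8% of genes.

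**Figure D4:**
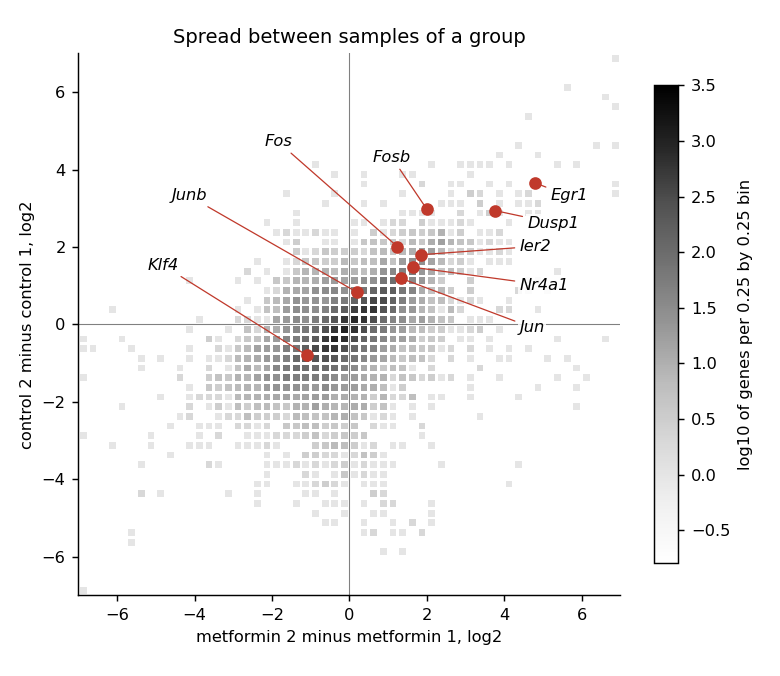
Difference between the 2 samples of a group for all 21648 genes and transcripts tested, as metformin 2 minus metformin 1 (horizontal axis, log2) and control 2 minus control 1 (vertical axis, log2), with grey squares shaded by the log10 number of genes. Red points are the 9 immediate early genes in the fit, of which 8 lie above 0 on both axes and Klf4 lies below 0 on both.

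Within pairs of samples of the same number, metformin was above control in both pairs for Fos, Jun and Klf4, that is 3 of 9 members, against 37.2% of genes tested. It was below control in both pairs for Nr4a1 and Ier2, 2 of 9, against 24.7% of genes. The other 4 members had pairs of opposite sign. Egr1 differed by -1.10 and 0.05 for numbers 1 and 2, Dusp1 by -0.46 and 0.37, Fosb by 0.35 and -0.62, and Junb by 0.43 and -0.18.

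The relatives of the members were read on the same arrays. For the counts by sample number in each list below, the shares over all genes tested were 27.7% above and 38.2% below. Of 13 other AP-1 and ATF genes tested, 10 had a higher and 3 a lower mean in metformin (median difference 0.13), and none passed the threshold. Both samples numbered 2 were above both numbered 1 for 7 of the 13 and below for 3. Fosl1, an inducible Fos relative, read -6.25 and 0.36 in metformin 1 and 2, against -6.19 and -0.23 in control 1 and 2. Atf3, a stress-induced repressor, read -0.06 and 3.31 in metformin 1 and 2, against 0.74 and 3.74 in control 1 and 2. Maff, a small Maf protein, and Jdp2, a dimer partner of Jun, also had both samples numbered 2 on top.

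Of 9 other EGR, NR4A and KLF genes tested, 7 were higher and 2 lower in metformin, with a median difference of 0.07 and none past the threshold. Number 2 was above number 1 for 5 of the 9. Egr2, a zinc-finger relative of Egr1, read -3.11 and -0.88 in metformin 1 and 2, against -4.19 and 0.06 in control 1 and 2. Nab1, a co-repressor that binds EGR proteins, read 0.09 and 1.12 in metformin 1 and 2, against 0.11 and 1.08 in control 1 and 2. Klf2, a factor of endothelial cells and lymphocytes, did not divide by number, at -0.74 and -1.75 in metformin 1 and 2, against -1.47 and -1.39 in control 1 and 2. Egr3, Egr4 and Nr4a3 were not well above background on any array and were not tested.

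Of 43 other early response genes tested, 26 were higher and 17 lower in metformin (median difference 0.19), and none passed. Number 2 was above number 1 for 30 of them and below for 5. Areg and Ereg encode the EGF receptor ligands amphiregulin and epiregulin. Areg read -1.89 and 4.56 in metformin 1 and 2, against -0.67 and 4.01 in control 1 and 2. Ereg read -0.11 and 3.93 in metformin 1 and 2, against 1.36 and 3.28 in control 1 and 2. Phlda1, another growth factor target, read 1.82 and 5.87 in metformin 1 and 2, against 1.72 and 5.32 in control 1 and 2. In all 3 of these genes the samples of a group lay further apart than the group means.

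Ccn2 is a matrix-associated growth factor known as a target of SRF and YAP. It was the 1 gene of the 43 with an unadjusted p under 0.05 (limma), against 1.60% of all genes tested. It read -4.84 and -4.76 in metformin 1 and 2, against -1.29 and -3.31 in control 1 and 2, with no overlap. Its difference was -2.50 (SE 0.73, limma adjusted p = 1.00), and -1.49 without control 1 (limma adjusted p = 0.9996). All 5 fibroblast markers lay on the same side, and their summed signal was 3.60 and 1.53 in metformin 1 and 2, against 13.9 and 6.38 in control 1 and 2. Smooth muscle markers, with a lower mean in metformin for 6 of 6, summed to 4.17 and 5.40 in metformin 1 and 2. Their sum was 127.2 and 6.42 in control 1 and 2. The mean was also lower for 4 of 4 enteric neuron and glia markers tested. Blood vessel markers divided 2 higher and 2 lower. The part of any of these markers in the Ccn2 value was not tested.

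The other dual-specificity phosphatases are, like Dusp1, brakes on MAP kinases. Of 11 tested, 6 were higher and 5 lower in metformin, with a median difference of 0.11 and none past the threshold. Number 2 was above number 1 for 7 and below for 1. Dusp5, which acts on ERK in the nucleus, read -4.20 and -2.28 in metformin 1 and 2, against -4.21 and -2.03 in control 1 and 2. Dusp4, Dusp8 and Dusp10 had the same division.

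Kinases and factors that act above the early genes carry the signal from the receptors to them. Of 41 tested, 30 were higher and 11 lower in metformin (median difference 0.16), and none passed the threshold. Number 2 was above number 1 for 10 and below for 14, near the shares of 27.7% and 38.2% over all genes tested. The median difference between the samples of a group was -0.22 in metformin and -0.08 in control. Srf, the factor that binds the CArG box, read 1.18 and 2.86 in metformin 1 and 2, against 1.45 and 2.70 in control 1 and 2. Crebbp, a co-activator of CREB, was higher in the samples numbered 1, at 2.73 and 1.08 in metformin 1 and 2, against 1.66 and 0.20 in control 1 and 2. Mapk12, a p38 kinase, read -4.57 and -5.25 in metformin 1 and 2, against -4.06 and -3.88 in control 1 and 2, without overlap (limma adjusted p = 1.00).

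Genes of the heat shock list, many of them driven by the factor HSF1, also divided by sample number. The list also holds Hsf1 itself and Hspa5, a chaperone of the endoplasmic reticulum, both with number 2 on top. Of 13 tested, both samples numbered 2 were above both numbered 1 for 11 and below for 0, while 6 were higher and 7 lower in metformin (median difference -0.08, none past the threshold). Hspa1a, the inducible HSP70, read -3.20 and 4.85 in metformin 1 and 2, against -3.05 and 3.89 in control 1 and 2. Hsph1, a partner of HSP70, read -0.45 and 3.41 in metformin 1 and 2, against 0.78 and 2.67 in control 1 and 2. Dnajb1, a co-chaperone, read 4.30 and 6.13 in metformin 1 and 2, against 3.82 and 5.59 in control 1 and 2. Hspb1, a small heat shock protein, did not divide so, at -0.60 and 0.84 in metformin 1 and 2, against 2.69 and 0.79 in control 1 and 2, and was highest in control 1. The part of a stress response in the members' values was not tested.

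Cell type markers were set beside the same division, in lists of few genes. Of all genes tested, 27.7% had both samples numbered 2 above both numbered 1, and 38.2% had them below. T cell markers were lower in both samples numbered 2 than in both numbered 1 for 3 of 3 tested, with a summed signal of 2.53 and 0.86 in metformin 1 and 2, against 1.17 and 0.78 in control 1 and 2. Proximal small intestine markers were lower for 3 of 5. For smooth muscle and fibroblast markers, 6 and 5 tested, no gene had both samples numbered 2 on 1 side of both numbered 1. The same held for the 3 macrophage and neutrophil, 4 B cell and 3 erythrocyte markers tested. Between the groups, no marker passed the threshold. The mean was lower in metformin for all 5 ileal enterocyte, 6 of 6 smooth muscle, 5 of 5 fibroblast and 4 of 4 enteric neuron and glia markers tested. It was higher for 5 of 5 small intestinal epithelium, 4 of 5 proximal, 3 of 3 macrophage and neutrophil, 3 of 3 T cell, 3 of 4 B cell and 3 of 3 erythrocyte markers. Some of these directions rested on 1 sample. Without metformin 1 the median difference was 0.50 for the ileal enterocyte markers, against -1.62 with it, and -0.80 for the proximal markers, against 0.77 with it. The smooth muscle median was -0.76 without control 1, against -3.15 with it. Without metformin 1 the B cell median was -0.29, against 0.44 with it. Metformin 2 by itself was below the control mean for every T cell marker tested. Cd3e read -0.41 there against -0.33, Cd3g -3.56 against -3.08, and Cd8a -5.31 against -4.65. So it was for the erythrocyte markers Hbb-bs (-3.07 against -2.85) and Hba-a1 (2.93 against 3.07), but not for Alas2 (-3.53 against -3.56). Blood vessel markers divided 2 higher and 2 lower, and adipocyte markers 1 higher and 2 lower. Of the 4 exocrine pancreas markers 1 was tested, with a difference of -0.01. Prss2 and Pnlip were not well above background on any array, and Cpa1 was so on metformin 2 alone (-7.14).

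**Figure D5:**
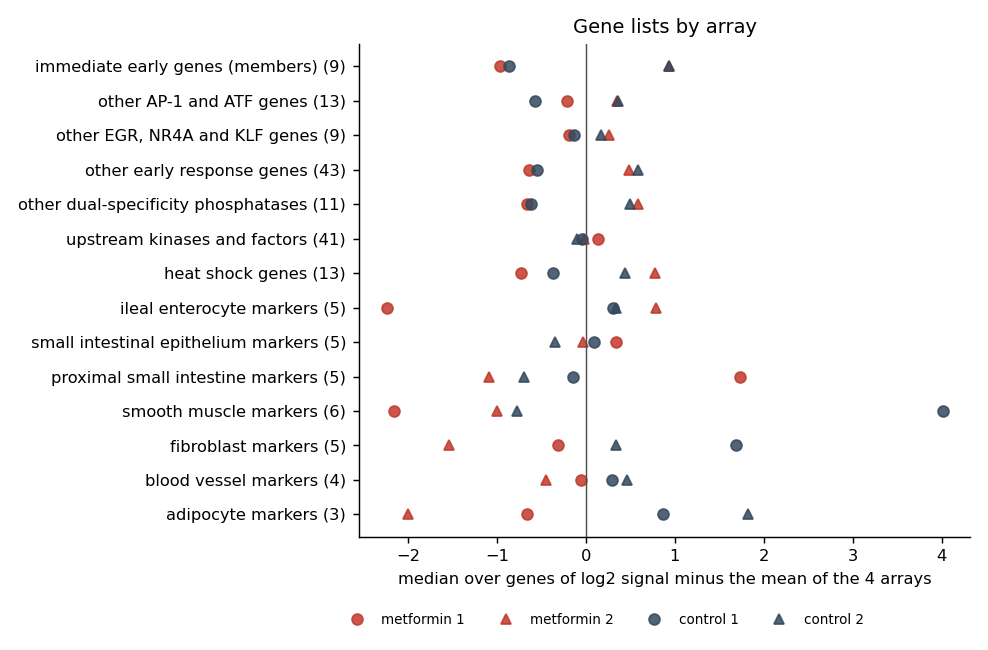
Deviation of each gene's log2 signal from its own mean over the 4 arrays, as the median over the tested genes of a list (horizontal axis), for the early gene, stress and tissue marker lists, each with its number of tested genes (vertical axis). Red and dark blue mark metformin and control, circles samples numbered 1 and triangles samples numbered 2. The members lie at -0.96 and 0.93 in metformin 1 and 2, and at -0.87 and 0.94 in control 1 and 2.

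Genes outside the lists whose 4 values were most like the members' median profile were sought by the root mean square difference over the 4 arrays after centring each gene. Hic2, a zinc-finger repressor, was closest at 0.04 log2 units, with -0.95 and 0.92 in metformin 1 and 2, against -0.85 and 1.03 in control 1 and 2. Mid1ip1 followed at 0.07 and Slc38a2, a neutral amino acid transporter, at 0.08, then Ndufaf4, Yrdc and Flrt3 at 0.10 each. For Fos alone the closest were Ssh1 at 0.08, Il1r2 at 0.12 and Ifi211 at 0.13. For Egr1 alone they were Phlda2 at 0.10, Tcf23 at 0.24 and Ankrd22 at 0.27. This is likeness over 4 arrays only.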

How the data were processed

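Ileal RNA was measured on 4 arrays, 2 metformin and 2 control, all on 1 slide and from 1 scan. Slide position (3 and 4 for metformin, 1 and 2 for control) cannot be told apart from treatment. The deposited scanner files hold spot intensity, background-subtracted within each array by Agilent Feature Extraction 10.7.3.1, per the file headers. A deposited table of the whole series held, for all 39030 probes with 1 spot, the raw median spot intensity, and served only as an alternative.

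The log2 processed signal minus the array's 75th percentile over 39429 non-control probes was used. Spots with an outlier flag were left out and the spots of a probe averaged. Accessions matched to RefSeq genes (GRCm38.p6) named 27508 probes and left 11921 unnamed. The build in the headers differs from that assembly, so the only coordinates given are those of the RefSeq promoters, in GRCm38.p6. A probe was kept if both arrays of a group had it well above background (26440 probes), and the brightest of a gene was tested (21648, of which 15357 had a symbol). Groups were compared with limma 3.58.1 in R 4.3.3 (2 residual and 2.43 prior degrees of freedom, two-sided, Benjamini-Hochberg over all tested, threshold 0.05). The fit was run on simulated data with independent noise and no effect of sample number, unlike these data. That run checked only the recovery of an added difference. The number of arrays limits the precision.

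The members, the lists (19 beside the members, 197 genes) and the tests were chosen with earlier results of these data known. All members were named. From each list, genes past the threshold were to be named, and as there were none, up to 4 well above background on all arrays with the widest range. Ccn2 and the others named from lists follow that rule, save Slc40a1, the untested genes and Sgk1, named after their values were seen. Of genes outside the lists, 6 were named by likeness to the members' profile and 3 each to Fos and Egr1. Alternatives were another background correction (normexp, offset 50, run on the median spot signal because the files used hold no mean-signal column), quantile normalization, the deposited table with and without scaling, other filters and probe rules, a trended prior, a replicate block, each sample left out, and outlier-flagged spots kept. The last was chosen after seeing the data.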

Additional observations from a re-analysis of the deposited data

How the results depend on the processing

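No member and no gene passed the adjusted threshold under any of 14 alternatives (0 in each), while 114 to 1566 genes had an unadjusted p under 0.05. With the replicate block, the number of members past the threshold was 0 (limma, smallest adjusted p = 0.6339), and the median member difference was -0.04. In that fit 2 of 9 members, Fos and Jun, had an unadjusted p under 0.05 (limma), as had 1566 of the 21648 genes tested. The SE in the block fit was 0.37 for Egr1, 0.28 for Dusp1 and 0.15 for Ier2. Without the block it was 2.05, 1.63 and 0.91. The intervals given for the members come from the fit without the block. The block fit has fewer residual degrees of freedom, and the labels do not say that a number marks a shared animal or day. Deviations of same-numbered samples from their group means correlated at 0.563 across genes, and genes are not replicates. The count of members with both samples numbered 2 on top was 8 of 9 under normexp, quantile normalization and the deposited table with or without scaling, and 9 of 10 with flagged spots kept. The deposited table as it stands put the median of all genes at -0.17, against 0.06, and there Junb turned to -0.14.

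Leaving out 1 sample moved the median member difference between -1.002 (without metformin 2) and 1.14 (without control 2). Over the 4 omissions Fos ranged from 0.07 to 2.08, Fosb from -1.62 to 1.35, Jun from -0.12 to 1.20, Junb from -0.29 to 0.54, Egr1 from -2.93 to 1.88, Ier2 from -1.002 to 0.85, Nr4a1 from -1.28 to 0.37, Klf4 from -0.15 to 0.94 and Dusp1 from -1.92 to 1.84. Without control 2, Fosb, Egr1, Ier2, Nr4a1 and Dusp1 turned to 1.35, 1.30, 0.82, 0.28 and 1.43, and Klf4 to -0.0038. Without metformin 1 they turned to 0.87, 1.88, 0.85, 0.37 and 1.84, and Klf4 to -0.15. Jun turned to -0.06 without control 1 and to -0.12 without metformin 2, and Junb to -0.29 without control 1. An omission leaves 1 sample in a group, assumed to vary like the other group. Every member in the fit other than Fos thus changed sign under at least 1 omission, and Fos fell to 0.07 without control 1. An omission also leaves the sample numbers unequal between the groups, so the gap between numbers 1 and 2 enters these differences. The lowest signal of a member spot was 5.15 times its local background.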

Other observations

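Some early genes outside the 43 tested were well above background on some arrays only, and are named after their values were seen. Spry4, an inhibitor of receptor tyrosine kinase signalling, was well above background on metformin 2 (-3.99) and control 2 (-3.83) and not on metformin 1 or control 1. Cxcl2, a neutrophil-attracting chemokine, showed the same pattern, at -3.91 in metformin 2 and -5.60 in control 2. Il6 was well above background on metformin 2 alone (-7.07). No fold is given for these genes.

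Sgk1, a kinase induced by serum and glucocorticoids, was singled out after its values were seen. It read 4.63 and 4.17 in metformin 1 and 2, against 3.72 and 3.33 in control 1 and 2, without overlap between the groups. Its difference was 0.87 (SE 0.34, limma adjusted p = 1.00).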
